A study of Drosophila melanogaster with 19 samples.

Results

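The question was whether circular RNAs of fly heads responded to the same change between samples in slow-polymerase flies as in wild-type flies. A circular RNA is seen in sequencing as a back-splice junction, the join of the end of a downstream exon to the start of an upstream one. The 8 libraries compared were all those of heads treated with RNase R, taken from 16 head libraries and 19 libraries in the series. The groups were slow29, slow18, WT29 and WT18, with 2 libraries each. Slow flies carried C4, a mutation on the X chromosome in the gene of the largest RNA polymerase II subunit. WT flies were Canton-S. The numbers 18 and 29 stand in the sample titles without a stated meaning and are called title numbers. The value of interest, the interaction, is the log2 change of 29 over 18 in slow heads minus that in WT heads. A positive interaction means that 29 stood higher relative to 18 in slow heads than in WT heads. No label states that the replicates are separate fly samples, so each p-value measures only the spread between these libraries, which may be technical.

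Circles form when the spliceosome joins a downstream 5' splice site to an upstream 3' splice site, a reaction that competes with linear splicing of the same transcript. They lack free ends and therefore resist RNase R, an exonuclease that degrades linear RNA, and they accumulate in neural tissue of flies. The C4 polymerase elongates slowly, and elongation speed is among the factors known to bear on the choice of splice sites.

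The RNase R libraries held 11115 and 16134 listed back-splice reads in slow29, 6125 and 4871 in slow18, 20254 and 12548 in WT29, and 12205 and 16714 in WT18. Both slow18 libraries were the shallowest of the 8. Levels are given as reads per 10000 listed back-splice reads, so every change is relative to the other circles of a library. Of 4515 junctions in heads, 2223 stood in both replicate tables and held 95.1% of these reads. Among them, 1221 junctions with at least 10 reads over the 8 libraries, and reads in at least 2, were tested, as were the sums of 770 host genes. In whole heads, fewer cells of a type and less of an RNA per cell cannot be told apart.

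The change with title number ran in the same direction in both genotypes wherever it passed the test in both. Within slow heads 40 of 1221 junctions passed (3.28%), of which 9 were higher (0.737%) and 31 lower (2.54%) at 29. Within WT heads 102 passed (8.35%), 36 higher (2.95%) and 66 lower (5.41%). The change averaged over both genotypes passed at 163 (13.3%). The test was edgeR's quasi-likelihood test with Benjamini-Hochberg adjustment at 0.05 over all junctions. The 2 lists shared 26 junctions, 65% of the slow list and 25.5% of the WT list. All 26 had the same sign in both genotypes, and 0 had opposite signs. The split into higher and lower depended on scaling. It was 33 higher and 14 lower in slow, and 48 and 41 in WT, with factors from all tested junctions. With RLE factors it was 29 and 14 in slow and 48 and 40 in WT, and with library totals alone 16 and 28 in slow and 41 and 47 in WT.

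The interaction passed the test at 0 of 1221 junctions (0%), and the smallest adjusted p was 0.864. An unadjusted p below 0.05 was found at 51 junctions, 4.18% of those tested, of which 22 were higher and 29 lower. DESeq2 also called 0 junctions, with 8 at an unadjusted p below 0.05. For host-gene sums, 0 of 770 passed (0%), with 37 at an unadjusted p below 0.05 (4.81%) and a smallest adjusted p of 0.526, and DESeq2 called 0 with 12 below that level. A count of 0 does not show that the genotypes responded alike: the median half-width of the 95% interval was 4.24 log2 units for junctions with 10 to 20 reads. It was 2.81 for 20 to 50 reads, 1.68 for 50 to 200 reads and 0.911 for the 68 junctions with 200 reads or more. For those 68, the median absolute interaction was 0.319 and the largest 1.39.

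Junctions called in one genotype mostly leaned the same way in the other. Of the 102 called in WT, 93 had the same sign in slow (91.2%), and of the 40 called in slow, 38 had the same sign in WT (95%). Over all tested junctions, 806 of 1221 had the same sign (66%). The 66 junctions lower at 29 in WT had a median log2 change of -1.64 in slow and -1.97 in WT. The 36 higher in WT had medians of 1.19 in slow and 1.83 in WT. The 31 lower in slow had medians of -2.35 in slow and -1.51 in WT, and the 9 higher in slow 2.70 in slow and 1.86 in WT. Each set was chosen on the genotype that shows the larger median, so the gap within a set is no test of a difference. Across junctions the Pearson correlation of the slow and the WT change was 0.361 at 10 to 20 reads (n = 500) and 0.459 at 20 to 50 (n = 407). It was 0.695 at 50 to 200 reads (n = 246) and 0.846 at 200 or more (n = 68). These are descriptions over junctions that share libraries and depth, and junctions are not replicates.

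**Figure D1:**
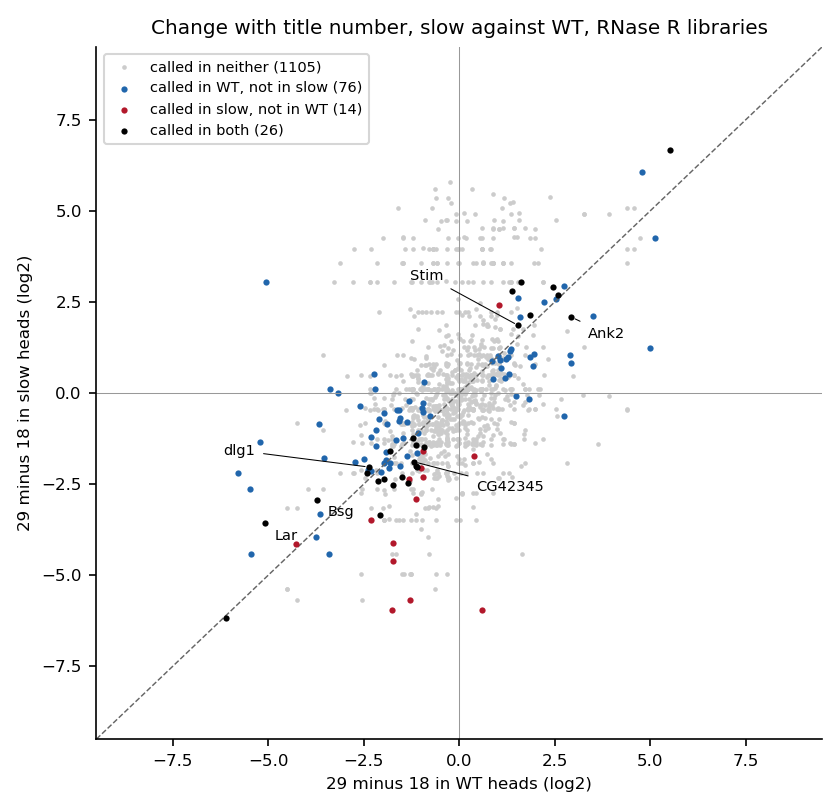
Each point is 1 of 1221 tested junctions, with the log2 change of 29 over 18 in WT heads on the x axis and in slow heads on the y axis, and the dashed line marks equal changes. The 26 black points passed the test in both genotypes and all lie in the lower left or upper right field; 14 red points passed in slow and not in WT, 76 blue points in WT and not in slow.

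The 10 circles with the smallest p for the change averaged over slow and WT are given next. That choice favours circles with the same sign and a similar size of change in both genotypes, so their likeness is not a result. The dlg1 circle X:11291858-11292855, from the gene for the Discs large scaffold of septate junctions and synapses, had 29.7 and 32.2 reads per 10000 in slow29, against 111 and 117 in slow18. In WT it had 15.8 and 31.1 in WT29, against 94.2 and 112 in WT18. Neither genotype's 29 libraries overlapped its 18 libraries. The circle fell by 2.03 on the log2 scale in slow (SE 0.29, adjusted p = 4.88e-10) and by 2.36 in WT (SE 0.27, adjusted p = 5.08e-15). Its interaction was 0.32 (95% interval -0.45 to 1.10), and -0.30 with all libraries thinned to equal depth. The other abundant dlg1 junction, X:11289273-11290136, did not pass in either genotype, with changes of 0.32 in slow and 0.34 in WT, and the difference between the 2 circles was not tested.

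Lar encodes a receptor tyrosine phosphatase of axon guidance, and its circle 2L:19714889-19715953 had 0 and 2.48 reads per 10000 in slow29, against 16.3 and 16.4 in slow18. WT29 had 0.987 and 0.797, against 27.9 and 34.1 in WT18. The circle fell in both genotypes, with log2 changes of -3.57 in slow (adjusted p = 5.74e-05) and -5.10 in WT (adjusted p = 7.53e-17). The interaction of 1.53 had a 95% interval of -0.74 to 3.80. It rests on few reads at 29, 4 in slow29 and 3 in WT29, and it was -2.41 without replicate 2 of slow29, and -1.57 at equal depth. Bsg encodes Basigin, a transmembrane protein of the immunoglobulin superfamily. Its circle 2L:8105692-8107880 had 3.60 and 3.72 in slow29, against 26.1 and 24.6 in slow18, and 2.96 and 5.58 in WT29, against 47.5 and 49.1 in WT18. It fell by 2.92 on the log2 scale in slow (adjusted p = 5.39e-06) and by 3.72 in WT (adjusted p = 7.69e-18), with an interaction of 0.79 (-0.65 to 2.23), and 0.27 without replicate 1 of WT29. The 18 libraries of the 2 genotypes did not overlap for this circle, and the 29 libraries did.

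Circles that were higher at 29 in both genotypes included those of Ank2, Stim and mGluRA. Ank2 encodes an ankyrin that links membranes to the cytoskeleton in neurons, and its circle 3L:7655571-7655990, the length of 1 coding exon, had 44.1 and 35.3 reads per 10000 in slow29, against 4.90 and 12.3 in slow18. WT29 had 37.0 and 35.9, against 6.55 and 2.39 in WT18. The circle rose by 2.09 in slow (SE 0.47, adjusted p = 0.000704) and by 2.94 in WT (SE 0.41, adjusted p = 3.11e-10), an interaction of -0.85 (-2.24 to 0.54), and -0.13 without replicate 2 of slow18. Stim encodes the calcium sensor of the endoplasmic reticulum, and its circle X:15830832-15831064 had 64.8 and 47.1 in slow29, against 14.7 and 12.3 in slow18. WT29 had 31.1 and 43.0, against 13.1 and 9.57 in WT18. It rose by 1.86 in slow (adjusted p = 0.000298) and by 1.55 in WT (adjusted p = 0.00038), an interaction of 0.31 (-0.78 to 1.40), and 0.00471 without replicate 1 of WT29. mGluRA encodes a metabotropic glutamate receptor, and its circle 4:958958-959743 rose by 2.13 in slow (adjusted p = 0.00648) and 1.86 in WT (adjusted p = 8.83e-05), an interaction of 0.27 (-1.16 to 1.71), and 1.67 without replicate 1 of slow18 but -0.31 without replicate 2. In slow, the call was lost without replicate 1 of slow18 for Ank2 (adjusted p = 0.233) and Stim (adjusted p = 0.0545), and without replicate 2 of slow18 for Stim (adjusted p = 0.072) and mGluRA (adjusted p = 0.272). In WT it was lost without replicate 2 of WT18 for Stim (adjusted p = 0.124) and mGluRA (adjusted p = 0.0707). At equal depth the mGluRA call in WT was lost as well (adjusted p = 0.0799).

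**Figure D2:**
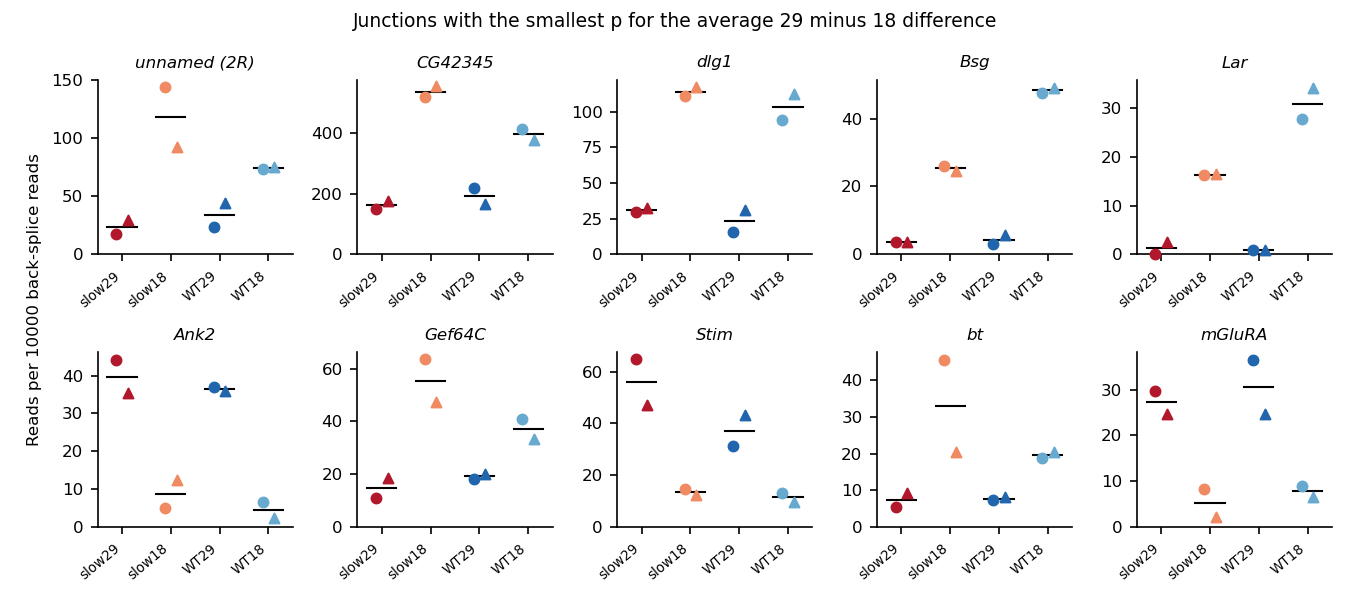
Reads per 10000 listed back-splice reads (linear scale from 0, its own range in each panel) of the 10 junctions with the smallest p for the average change with title number. Circles are replicate 1, triangles replicate 2 and bars the group mean, with slow29, slow18, WT29 and WT18 from left to right; the 2 points of slow29 lie on the same side of slow18 as WT29 does of WT18 in all 10 panels, which the choice of junctions by their average change favours.

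In 3 of the 26 shared circles the interaction had an unadjusted p below 0.05, against 4.18% of all tested junctions. These 3 were among the 18 lower at 29, each with a larger fall in slow, and none was among the 8 higher. The 26 were chosen on the 2 changes that make up the interaction, so this count is no test of a difference. CG42345 (stw) encodes laccase 2, an enzyme of cuticle hardening and colouring, and its circle 2R:1311255-1311744 had 148 and 175 reads per 10000 in slow29, against 518 and 554 in slow18. WT29 had 220 and 166, against 412 and 378 in WT18. It fell by 1.89 in slow (SE 0.23, adjusted p = 5.26e-14) and by 1.19 in WT (SE 0.22, adjusted p = 6.15e-06). The slow18 libraries were the highest and did not overlap WT18, and the slow29 and WT29 libraries overlapped. The interaction was -0.70 (-1.30 to -0.09, adjusted p = 0.927), and -0.86 to -0.53 when 1 library was left out. In mock libraries of the same RNA samples, it was -0.73 with a wider interval (-1.97 to 0.51).

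A junction at 2R:6681630-6681989, on the minus strand with no annotated gene, had 17.1 and 29.8 reads per 10000 in slow29, against 144 and 92.4 in slow18. WT29 had 23.7 and 43.8, against 73.7 and 75.4 in WT18. It fell by 2.47 in slow (adjusted p = 5.18e-14) and by 1.34 in WT (adjusted p = 6.65e-05), an interaction of -1.13 (-1.91 to -0.35, adjusted p = 0.864). Leaving out 1 library gave interactions of -1.60 to -0.63, the last without replicate 2 of WT29. In WT the call was lost without replicate 1 of WT29 (adjusted p = 0.128). The circle of Gef64C at 3L:4751964-4753381 had 10.8 and 18.6 in slow29, against 63.7 and 47.2 in slow18. WT29 had 18.3 and 19.9, against 41.0 and 33.5 in WT18. It fell by 2.04 in slow (adjusted p = 1.63e-06) and by 1.12 in WT (adjusted p = 0.00769). The interaction was -0.93 (-1.84 to -0.01, adjusted p = 0.927), and ran from -1.39 without replicate 2 of slow29 to -0.62 without replicate 1 of slow29. In mock libraries it was 0.28 (-2.61 to 3.16). Its WT call was lost with factors from all junctions (adjusted p = 0.057), with DESeq2 (adjusted p = 0.182) and without replicate 1 of either WT29 (adjusted p = 0.156) or WT18 (adjusted p = 0.126). The gene bt encodes the giant muscle protein projectin. Its short junction 4:758362-758535 passed in slow (-2.90, adjusted p = 8.15e-05) and not in WT (-1.12, adjusted p = 0.21). That interaction was -1.79 (-3.41 to -0.16, adjusted p = 0.927). The longer bt circle, at 4:756141-758535, fell by 2.31 in slow (adjusted p = 3.22e-05) and 1.51 in WT (adjusted p = 0.00534). The interaction of this longer circle was -0.80 (-2.0 to 0.40). It was -0.04 without replicate 1 of slow18 and -1.27 without replicate 2 of slow29. Its call was lost in slow without replicate 1 of slow18 (adjusted p = 0.26), and in WT without replicate 1 of WT29 (adjusted p = 0.137), without replicate 2 of WT18 (adjusted p = 0.107), with DESeq2 (adjusted p = 0.164) and at equal depth (adjusted p = 0.106).

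Of the 26 circles, 18 were lower and 8 higher at 29. Their interactions ranged from -1.30 to 1.53 among the lower and from -0.85 to 1.44 among the higher. Besides those above, the lower ones came from Pino, smi35A (the kinase Dyrk2), CG31149, CG32264, CG32541, rdo, CG4266, klg (an immunoglobulin-family adhesion protein), lt (a Vps41 protein of traffic to lysosomes), cpo (the RNA-binding protein couch potato) and CG34377. The higher ones came from CG1358, ap (the homeodomain factor apterous), CG41099, Caps (a secretion activator of dense-core vesicles) and an unnamed junction at 3R:7576892-7577007. The smallest change was that of CG34377 in WT, -0.93. The circles with the largest changes had groups without reads: the Pino circle 2L:1116441-1117516 had 0 reads in both slow29 and both WT29 libraries, against 3 and 4 reads in slow18 and 6 and 13 in WT18.

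The junctions with the smallest interaction p are given as values, since none passed the adjusted test. The homeobox gene NK7.1 came first, with the circle 3R:10166944-10170906. It had 2.70 and 1.86 reads per 10000 in slow29, against 4.90 and 12.3 in slow18, and 3.46 and 7.17 in WT29, against 0.819 and 1.79 in WT18. The 29 libraries were below 18 in slow and above 18 in WT, on 1 to 9 reads per library. The log2 differences were -2.01 in slow and 1.62 in WT, an interaction of -3.64 (-5.92 to -1.35, adjusted p = 0.864).

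The junction labelled Msp-300, a nesprin of muscle and the nuclear envelope, joins 2L:816665 and 2L:8042117. Its ends lie 7225453 bases apart and match no exon stretch of the gene, so its reads may not belong to Msp-300. Its level was far lower with RNase R, 1.20 to 26.7 reads per 10000 over the libraries, than in mock, 91.3 to 604. It may therefore not be a circle, which was not tested. It had 4.50 and 9.92 reads per 10000 in slow29, against 19.6 and 26.7 in slow18, and 9.87 and 11.2 in WT29, against 14.7 and 1.20 in WT18. It fell by 1.74 in slow (adjusted p = 0.0177), with a difference of 0.38 in WT (adjusted p = 0.698). The interaction was -2.12 (-3.45 to -0.78, adjusted p = 0.864). The WT18 replicates lay on either side of WT29. Without replicate 1 of WT18, the interaction was -4.62 (adjusted p = 0.0034) and was the 1 junction that passed in any fit with a library left out. Without replicate 2 of WT18 it was -1.07. In mock libraries it was 0.14 (-1.03 to 1.30).

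CG17646 was 1 case of a change that passed in WT and not in slow. Its circle 2L:1741660-1742260 had 6.30 and 9.30 reads per 10000 in slow29, against 8.16 and 10.3 in slow18. WT29 had 3.95 and 4.78, against 24.6 and 23.3 in WT18. The groups overlapped in slow and lay apart in WT, where the WT18 libraries were the highest of the 8. The circle fell by 2.61 in WT (SE 0.44, adjusted p = 9.41e-07), and the log2 difference in slow was -0.35 (SE 0.60, adjusted p = 0.817). The interaction was 2.26 (0.81 to 3.72, adjusted p = 0.864), and 1.94 to 2.49 when 1 library was left out.

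CG9634 (goe) had its circle X:16638647-16639986 at 7.20 and 8.06 reads per 10000 in slow29, against 16.3 and 24.6 in slow18, and at 15.3 and 12.8 in WT29, against 6.55 and 12.6 in WT18. The interaction was -1.90 (-3.17 to -0.63), and in mock -2.30 with an interval that included 0 (-5.56 to 0.97). Pax encodes paxillin, an adaptor at cell adhesions, and its circle 2L:19409404-19410643 went the other way. It had 9.90 and 11.2 in slow29, against 3.27 and 2.05 in slow18, and 3.46 and 4.78 in WT29, against 7.37 and 7.78 in WT18. The groups lay apart in both genotypes, in opposite directions, and neither difference passed the test (1.76 in slow, adjusted p = 0.246, and -1.07 in WT, adjusted p = 0.261). The interaction was 2.83 (0.90 to 4.77). The gene alph encodes a protein phosphatase. Its circle at 3R:25422963-25423195 had an interaction of -2.02 (-3.52 to -0.52), and -3.17 and -1.51 without replicates 2 and 1 of WT18. That of CG11319 (Dpp10), a member of the dipeptidyl peptidase family, at 2L:6580415-6587143 had 1.37 (0.28 to 2.46). From the 4 libraries of replicate 1 alone it was 0.31, and from those of replicate 2 alone 2.57. In mock libraries it was -0.94 (-3.40 to 1.52).

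The remaining 4 junctions among the 12 with the smallest p had a group without reads. For shakB, the gene of a gap junction innexin, the circle X:20663382-20677010 had 6 and 7 reads in slow29, 0 and 0 in slow18, 7 and 2 in WT29, and 5 and 6 in WT18. Against a limit of 3 reads over the slow18 group, and with depth taken into account, its observed slow29 level was 1.75-fold higher. Such a fold takes the observed reads as exact and is not a lower bound. The CG11206 (Liprin-gamma) circle 2R:18232219-18234214 had 5 and 6 reads in slow29, 0 and 0 in slow18, 7 and 3 in WT29, and 6 and 6 in WT18. Its observed slow29 level was 1.48-fold above that limit for slow18. The CG32048 (CG42673) circle 3L:9546002-9546636 had 0 and 0 reads in slow29, 4 and 2 in slow18, 2 and 2 in WT29, and 1 and 1 in WT18. Its observed slow18 level was 4.96-fold above a limit of 3 reads over the slow29 group. For CG40178, the circle 3LHet:1306995-1344239 had 0 and 0 reads in slow29 and 0 and 2 in slow18, which gives no fold, and 12 and 5 in WT29, against 3 and 1 in WT18. Its fitted interaction was -6.07, and -1.65 without replicate 2 of slow18.

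**Figure D3:**
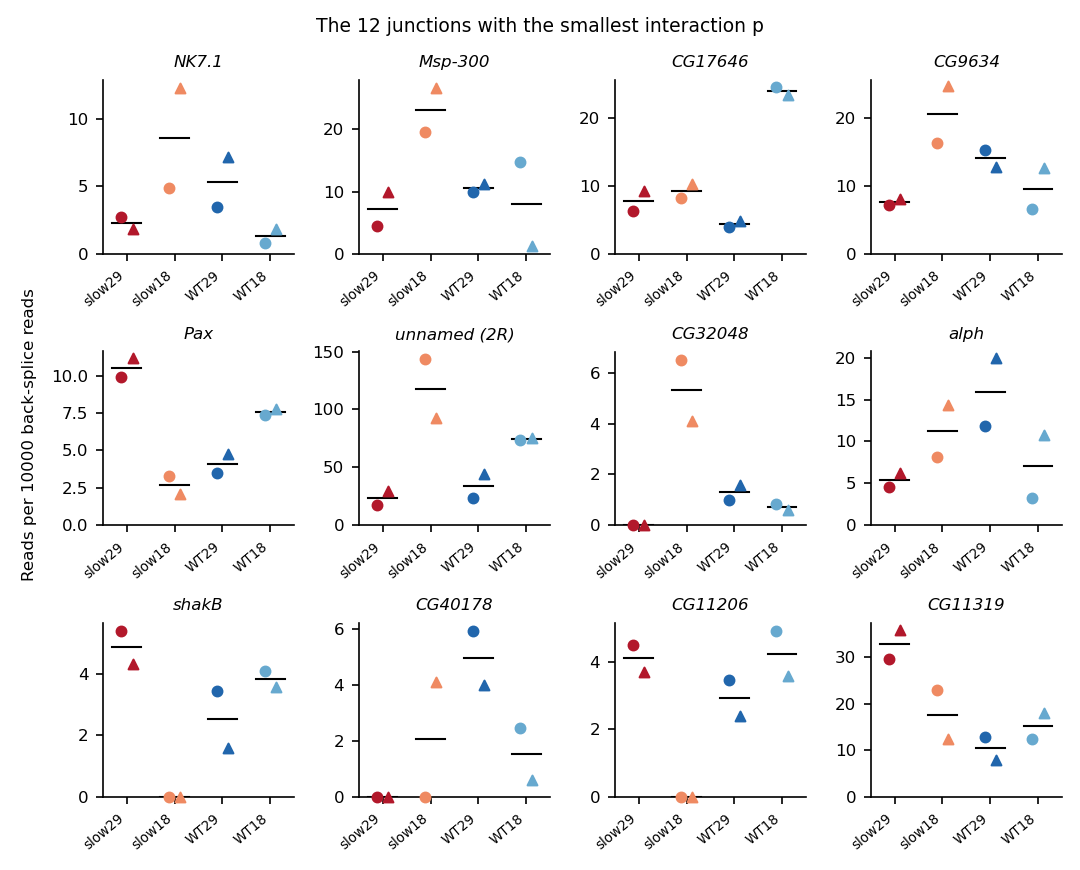
Reads per 10000 listed back-splice reads of the 12 junctions with the smallest interaction p, drawn as circles for replicate 1, triangles for replicate 2 and bars for the group mean, with slow29, slow18, WT29 and WT18 from left to right. The slow and WT pairs differ in opposite directions in several panels, the slow18 points of shakB and CG11206 lie at 0, and none of the 12 passed the adjusted test.

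Small p-values were no more frequent at junctions with few reads. Of the 51 junctions with an unadjusted p below 0.05, 33 had under 50 reads (64.7%), against 907 of all 1221 tested (74.3%). The share with such a p was 3% at 10 to 20 reads, 4.42% at 20 to 50, 5.28% at 50 to 200 and 7.35% at 200 or more. A group without reads was found at 21 of the 51 (41.2%), against 223 of all tested (18.3%). The group without reads was slow18 in 14 of these 21, against 169 of the 223 among all tested. As shares, slow18 had no reads at 27.5% of the 51 and at 13.8% of all tested. Among the 21, the group was slow29 in 5 cases, WT29 in 1 and WT18 in 2. A count of 0 allows up to 2.73 reads per 10000 in slow18, against 1.10 in slow29, 0.915 in WT29 and 1.04 in WT18, counting error only. With every library thinned to 4871 reads, 0 of 620 junctions passed for the interaction, and 22 had an unadjusted p below 0.05. At that depth 21 junctions were called within slow and 14 within WT, so the larger number of calls in WT was not seen at equal depth. At full depth, the count within slow was 14 and 18 without replicate 1 and 2 of slow18, and 17 without replicate 1 of slow29. The count within WT was 36 without replicate 1 of WT29, and 51 and 26 without replicate 1 and 2 of WT18. A group left with 1 library was assumed to vary like the others.

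**Figure D4:**
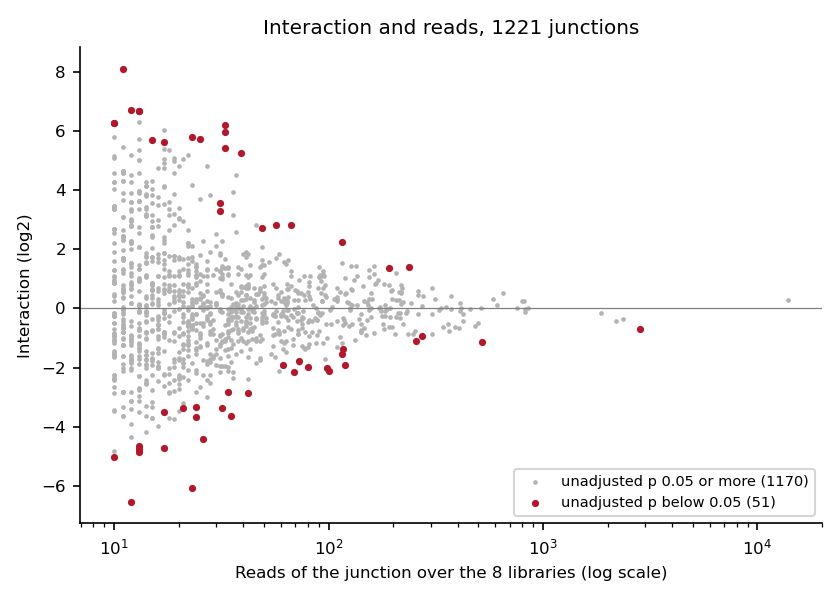
Fitted interaction (log2, y axis) against the total reads of a junction over the 8 libraries (log scale, x axis) for 1221 junctions, in red the 51 with an unadjusted p below 0.05. The spread narrows with reads: the median absolute interaction is 1.67 at 10 to 20 reads and 0.319 at 200 or more.

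Among the 8 most abundant circles, CG42345 was described above, and for the other 7 the 95% interval of the interaction included 0. The mbl circle 2R:13162915-13163568, from the gene for the splicing regulator muscleblind, held 20.8% and 20.1% of listed reads in slow29, against 14.0% and 11.8% in slow18. It held 12.3% and 13.1% in WT29, against 10.7% and 8.98% in WT18. Its share was highest in slow29, and the 29 libraries lay above the 18 libraries in both genotypes. Neither difference passed the test (0.51 in slow, adjusted p = 0.159, and 0.21 in WT, adjusted p = 0.631), and the interaction was 0.30 (-0.28 to 0.87), with 0.15 to 0.45 when 1 library was left out. As a share of reads, the interaction was 4.73 percentage points (two-sided exact permutation p = 0.333, with 0.0556 the smallest the design allows).

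The calcium/calmodulin-dependent kinase gene CaMKI, at 4:470550-471135, had 179 and 182 reads per 10000 in slow29, against 225 and 271 in slow18, and 209 and 308 in WT29, against 283 and 269 in WT18. Its interaction was -0.36 (-0.97 to 0.26), and -0.03 without replicate 2 of WT29. The RNA helicase gene Dbp80, at 3LHet:2454979-2455331, had 273 and 203 in slow29, against 227 and 226 in slow18, and 205 and 297 in WT29, against 160 and 194 in WT18, an interaction of -0.44 (-1.06 to 0.18), and -0.12 without replicate 2 of WT29. The homeobox gene scro, at 3LHet:209156-209624, had -0.14 (-0.77 to 0.49). Ogt (sxc), the O-GlcNAc transferase gene, at 2R:1203774-1208120, had -0.01 (-0.71 to 0.70). Both circles of CG40084 (uex) were near 0, with -0.13 (-0.84 to 0.58) at 2RHet:3174710-3175043 and 0.02 (-0.69 to 0.73) at 2RHet:3154309-3155516. The signs for scro, Ogt and the shorter CG40084 circle changed with scaling. The intervals of these 7 circles ran from -1.06 at the lowest to 0.87 at the highest.

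**Figure D5:**
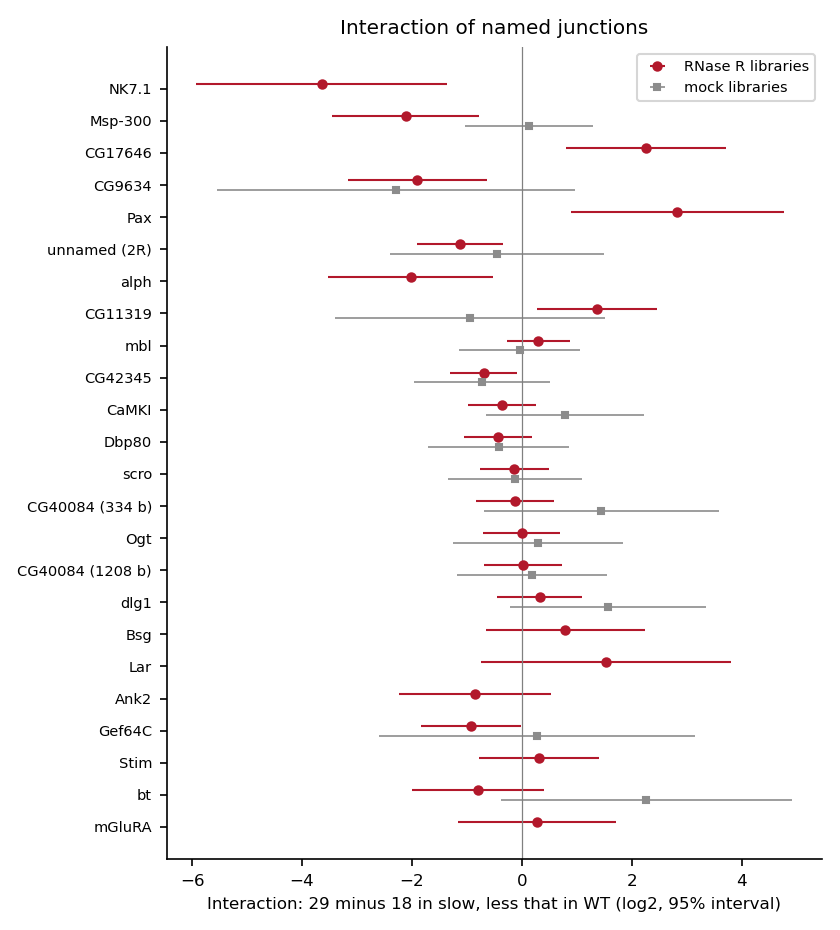
Interaction (log2) with its 95% interval for the junctions with the smallest p, the 8 most abundant and the 10 with the most evident average change, in RNase R libraries (red) and, where they could be fitted, in mock libraries (grey). Intervals wider than 8 log2 units are left out; those of the most abundant circles are the narrowest, and no interaction passed the adjusted test.

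No host-gene sum was called with opposite signs in slow and WT. Within slow, 45 of 770 host genes passed (5.84%), 12 higher (1.56%) and 33 lower (4.29%), and within WT 90 passed (11.7%), 27 higher (3.51%) and 63 lower (8.18%). Of these, 34 passed in both and all 34 had the same sign. The 34 are 75.6% of the slow list and 37.8% of the WT list. With factors from all junctions the split was 32 higher and 16 lower in slow and 36 and 39 in WT, and with RLE factors 27 and 16 in slow and 37 and 41 in WT. With library totals alone it was 20 and 26 in slow and 31 and 46 in WT. At equal depth 516 host genes were tested, with 23 called in slow, 20 in WT and 0 for the interaction. Without 1 library the count in slow was 23 (replicate 1 of slow29), 20 and 15 (replicates 1 and 2 of slow18). In WT it was 50 (replicate 1 of WT29), 46 and 33 (replicates 1 and 2 of WT18). The 2 host genes with the smallest interaction p were Msp-300, again with the doubtful junction in its sum (-1.79, -2.86 to -0.72), and cac.

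The gene cac encodes the pore subunit of a presynaptic calcium channel, and its 9 junctions summed to 9 and 14 reads in slow29, 1 and 0 in slow18, 18 and 13 in WT29, and 16 and 22 in WT18. That is 8.10 and 8.68 reads per 10000 in slow29, against 1.63 and 0 in slow18, and 8.89 and 10.4 in WT29, against 13.1 and 13.2 in WT18. The slow18 libraries stood below the other 6. The interaction was 3.55 (1.35 to 5.75, adjusted p = 0.526). It was 2.76 without replicate 2 of slow18, and 7.16 without replicate 1 of slow18, where the remaining slow18 library had no read. cnc encodes a stress-response factor of the Nrf2 family, and its 6 junctions had 17.1 and 22.3 reads per 10000 in slow29, against 24.5 and 20.5 in slow18. WT29 had 12.8 and 19.9, against 38.5 and 47.3 in WT18. The sum fell by 1.60 in WT (adjusted p = 2.01e-06), with a difference of -0.34 in slow (adjusted p = 0.7), an interaction of 1.26 (0.34 to 2.18, adjusted p = 0.766). Its circle 3R:19023009-19023698 had an interaction of 1.16 (-0.05 to 2.37), and 0.61 without replicate 2 of slow29. In mock libraries it was -1.93 (-5.61 to 1.76).

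The sum of nrv3, which encodes a beta subunit of the sodium pump, had an interaction of -2.12 (-3.62 to -0.62). It had 7.20 and 4.96 reads per 10000 in slow29, against 6.53 and 14.4 in slow18, and 15.3 and 15.1 in WT29, against 6.55 and 5.38 in WT18. CG16976 (Fife), an active zone protein gene, had 8.10 and 4.96 in slow29, against 13.1 and 2.05 in slow18. WT29 had 14.8 and 14.3, against 4.92 and 3.59 in WT18. It rose by 1.63 in WT (adjusted p = 0.0101), with a difference of -0.53 in slow, where slow29 lay within the range of slow18. Its interaction of -2.16 became -0.20 without replicate 1 of slow18. CG5172 had -2.87 (-5.07 to -0.66), and -0.76 without that library. The sums of CG42345 (-0.71), CG11319 (1.19), CG9634 (-1.89) and shakB (6.23, with slow18 at 0 reads) rest largely on the circles above.

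By function, no group of host genes held a junction that passed for the interaction. Over all junctions tested, the median interaction was 0.01, 4.18% had an unadjusted interaction p below 0.05, and 3.28% were called in slow and 8.35% in WT. Synapse and ion channel genes had 113 tested junctions, a median of 0.03, and 1 higher and 1 lower at an unadjusted p below 0.05, both in Nrx-1 (neurexin). Within slow 2 of them were called higher (mGluRA, Caps) and 1 lower (dlg1), and within WT 6 higher and 3 lower. These are 2.65% in slow and 7.96% in WT, near the shares over all junctions. RNA-binding and splicing genes had 53 junctions and a median of -0.05. One, in shep, reached an unadjusted p below 0.05, and none was called in slow, against 3 in WT (pum, ps and Sxl). These are 1.89% of the list for the interaction, 0% in slow and 5.66% in WT, each below the share over all junctions. Axon guidance and adhesion genes had 47 junctions and a median of 0.11, with 2 called in slow (Bsg and Lar), both lower, and 3 in WT (Bsg, Lar and beat-IIa), all lower, or 4.26% in slow and 6.38% in WT. Transcription factor and chromatin genes had 43 junctions and a median of -0.01, with 1 called in slow (tai) and 1 in WT (sima), both lower, or 2.33% in each. Intracellular signalling genes had 24 junctions and a median of -0.05, with InR (lower) and Stim (higher) called in slow. In WT Ogt and Stim were called, both higher, and the share was 8.33% in each genotype. The Ogt call was not that of the abundant circle 2R:1203774-1208120, which did not pass in WT (-0.05, adjusted p = 0.932). Whether a list's calls differ between genotypes was not tested.

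In these lists the junction with the smallest interaction p often had few reads. The Nrx-1 circle 3R:18306518-18306848 had 1 and 1 reads in slow29, 0 and 4 in slow18, 8 and 5 in WT29, and 1 and 4 in WT18. Its interaction was -3.34 (-6.37 to -0.32), but 2.17 without replicate 2 of slow18. The zfh2 junction 4:542099-547146, from a gene for a zinc-finger homeodomain factor, had -3.50 (-6.74 to -0.27). The interaction was -6.53 without replicate 2 of slow29 and -2.56 without replicate 2 of slow18. In mock libraries it was 0.63 (-2.27 to 3.54). This junction stood lower with RNase R, at 0 to 10.3 reads per 10000, than in mock, at 11.1 to 22.2 on 1 to 6 reads per library. The shep circle 3L:5155556-5160159, from an RNA-binding protein gene, had 0 and 5 reads in slow29, 0 and 0 in slow18, 1 and 2 in WT29, and 5 and 2 in WT18. The trio circle 3L:1003396-1003821 had -1.70 (-3.42 to 0.01), and -1.0 without replicate 2 of WT29. The Pkc53E circle 2R:12818617-12820083 had 0 and 0 reads in slow29, 0 and 2 in slow18, 3 and 2 in WT29, and 2 and 5 in WT18.

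Stress and heat shock genes had 6 junctions, a median of 0.31, none called in slow and 2 lower in WT (cnc and sima). That is 0% of 6 in slow and 33.3% in WT, against 2.54% and 5.41% of all junctions lower. No junction of the RNA polymerase II and elongation genes, of clock genes or of glial markers reached the test. Of the cell marker lists, 14 of 20 muscle genes, 16 of 20 photoreceptor genes, 7 of 16 fat body and cuticle genes and 8 of 9 hemocyte genes had a listed junction. The 13 muscle junctions tested had a median of -0.80, with 3 lower in slow (Msp-300 and 2 of bt). In WT 1 was higher and 2 lower (2 of Tm1 and 1 of bt). That is 23.1% of 13 in each genotype, against 2.54% of all junctions lower in slow, and 2.95% higher and 5.41% lower in WT. Summed muscle junctions had 61.2 and 78.1 reads per 10000 in slow29, against 160 and 162 in slow18. WT29 had 64.2 and 107, against 102 and 102 in WT18. The slow18 libraries were the highest. These sums include the bt junctions and the doubtful Msp-300 junction, so they are no separate measure beside those results. Whether the other muscle circles moved alike was not tested. The 9 photoreceptor junctions had a median of -1.03, with none called. Their sums were 43.2 and 36.6 in slow29, against 60.4 and 49.3 in slow18, and 42.0 and 45.4 in WT29, against 45.1 and 37.7 in WT18. The smallest p was that of the CG13814 (rdgC) circle 3L:20248998-20249738, with 2 and 2 reads in slow29, 0 and 0 in slow18, 3 and 1 in WT29, and 2 and 7 in WT18. Fat body and cuticle genes had 3 junctions and a median of -0.70, with 2 lower in slow, both of CG42345, and 2 lower in WT (CG42345 and Yp3). That is 66.7% of 3 in each genotype, against 2.54% of all junctions lower in slow and 5.41% lower in WT. Their sums were 157 and 190 in slow29, against 545 and 571 in slow18, and 225 and 179 in WT29, against 432 and 397 in WT18, of which the CG42345 circle above holds most. The 2 hemocyte junctions had a median of -1.36, and the Ppn circle 3R:24348204-24348982 had -2.22 (-5.68 to 1.25), which was -4.49 without replicate 1 of slow29 and -0.80 without replicate 2 of slow18. Back-splice reads of a marker gene are not its messenger level.

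Mock libraries of the same RNA samples offered a separate measure of the same contrast. With 800 to 3427 listed reads each, 230 junctions could be tested, and 0 passed (0%). An unadjusted p below 0.05 was found at 9 (3.91%), and DESeq2 gave 0 calls and 0 at that level. Of the 36 named junctions 21 could be fitted in mock, and the interaction had the same sign as with RNase R at 11 and the opposite sign at 10. The 10 were Msp-300, CG11319, mbl, CaMKI, the shorter CG40084 circle, Ogt, Gef64C, bt, zfh2 and cnc, and none of the 21 had an unadjusted mock p below 0.05. The dlg1 circle X:11291858-11292855 had a mock interaction of 1.57 (-0.21 to 3.35) and the bt circle 4:756141-758535 had 2.27 (-0.39 to 4.92). Those intervals are wide and include 0.

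Measures of whole libraries gave differences of differences that the design cannot call, since 36 arrangements allow no p below 0.0556. The mean log2 total of listed reads was 13.7 in slow29, 12.4 in slow18, 14.0 in WT29 and 13.8 in WT18, an interaction of 1.14 (exact two-sided permutation p = 0.278). At a common depth of 4871 reads, the number of junctions expected was 1236 in slow29, 1288 in slow18, 1269 in WT29 and 1313 in WT18, an interaction of -8.33 (exact permutation p = 0.944). The 10 most abundant junctions held 32.6% of reads in slow29, 28.9% in slow18, 25.7% in WT29 and 23.8% in WT18, an interaction of 1.82 percentage points (exact permutation p = 0.5). Junctions on the X chromosome, where the C4 allele lies, held 9.68% in slow29, 10.4% in slow18, 10.7% in WT29 and 10.6% in WT18, an interaction of -0.90 (exact permutation p = 0.222). With the mbl share these are 5 measures, and their Benjamini-Hochberg adjusted exact p-values ran from 0.555 to 0.944.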

How the data were processed

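Per the labels' protocols, digestion with RNase R took 15 min at 37 °C with 3 units per microgram of RNA. The submitters' processing notes name Bowtie, CASAVA and build dm3; no junction caller is named. The deposited values are counts: whole reads per back-splice junction. Coordinates are dm3, counted from 1. A later annotation gave current names for 1641 of 1689 host labels and exon lengths; 1.71% of reads had no host label.

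Junctions in both replicate tables were fitted in edgeR 4.0.16 (limma 3.58.1, R 4.3.3), with 4 group means, TMM factors over the 100 most abundant junctions, listed totals as library size and quasi-likelihood F-tests. Each SE is the absolute log2 change over the square root of F, and intervals restate the test. The labels name no molecular identifiers, so limits from counts cover counting error only. DESeq2 1.42.0, other scalings and filters, left-out libraries and a replicate block were alternatives. The edgeR test of the junction interaction was also run on simulated counts with known interactions. Those counts had 1 spread for all junctions and groups and no shared change with title number, so they do not cover these data in those respects. The intervals, the host-gene sums and the alternatives were not tested in that way. Replicates differed beyond sampling noise in all 4 groups.

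Named were the 12 junctions and 10 host genes with the smallest interaction p, the 8 most abundant junctions, the 10 with the smallest p for the average change, and the smallest p in each of 13 lists. Members and lists were chosen with earlier results of these data known; CG34377, Pino, the second dlg1 junction and the circles called in both were named after their values were seen.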

Additional observations from a re-analysis of the deposited data

How the results depend on the processing

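Calls for the interaction stayed at 0 for junctions, host genes and mock junctions in every alternative run, apart from 0 to 1 junction when 1 library was left out. Calls within a genotype depended on depth and tool. DESeq2 gave 16 junctions in slow, 20 in WT and 61 for the average change (163 in the main test), and 25 and 27 host genes in slow and WT. A minimum of 50 reads gave 103 of 314 tested for the average (40 higher, 63 lower), against 163 of 1221 in the main test. Equal depth, chosen after seeing the data, gave 21, 14 and 64 of 620 junctions and 23 and 20 of 516 host genes. With 1 library left out, counts ran from 14 to 48 in slow, 26 to 100 in WT and 86 to 154 for the average, and for host genes from 15 to 63 in slow and 33 to 97 in WT. Library measures then ran from -33.2 to 16.6 for junctions at common depth, 0.790 to 1.48 for log2 totals, 0.650 to 2.99 and 3.64 to 5.82 points for the top 10 and mbl shares, and -1.24 to -0.563 points for X. Factors from all junctions moved the median slow change to 0.21, against -0.22, and the median interaction to 0.26 (RLE 0.18), against 0.01.

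Some interactions changed sign, and the cause was not tested. Not all of them were near 0: in the main fit Nrx-1 had -3.34, Pkc53E -3.63 and Lar 1.53. With factors from all junctions, RLE and DESeq2, scro had 0.11, 0.041 and 0.042, Ogt 0.22, 0.17 and 0.19, and the shorter CG40084 circle 0.11, 0.065 and 0.061. At equal depth dlg1 had -0.30, Lar -1.57 and the longer CG40084 circle -0.042; the last had -0.012 among exon-matched junctions, also chosen after seeing the data. With 1 library left out, ranges were -0.48 to 0.43 for Ogt, -2.41 to 2.28 for Lar, -0.33 to 0.025 for scro, -0.61 to 0.50 and -0.21 to 0.30 for CG40084, -0.31 to 1.67 for mGluRA, -4.47 to 2.17 for Nrx-1, -4.86 to 0.79 for Pkc53E and -0.19 to 0.86 for dlg1.

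A replicate block gave 0 calls for the interaction, 39 junctions in slow, 93 in WT and 147 for the average, and 45 and 80 host genes; Ogt became 0.016. Correlations of same-numbered libraries ran from -0.155 to 0.294, so the numbers were not taken as pairs. Depth is a limit: most junctions had under 50 reads, and slow18 was the shallowest group.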

Other observations

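Of 116 circles called in slow or WT, 16 had an interaction with an unadjusted p below 0.05, and 13 of them were called in 1 genotype. Over all tested junctions the share with such a p was 4.18%. The 116 were chosen on the changes whose difference is the interaction, which favours small p-values, so the count is no test of a difference. The circles below were picked after their values were seen. CG17304 (btsz), a synaptotagmin-like protein gene, had its circle 3R:10685031-10685789 at 4.50 and 0.620 reads per 10000 in slow29, against 3.27 and 4.11 in slow18, and at 1.97 and 0 in WT29, against 14.7 and 15.0 in WT18. It fell by 3.67 in WT (adjusted p = 1.35e-06), with a difference of -0.84 in slow. CG30089 had its circle 2R:11622596-11624565 at 45.9 and 43.4 in slow29, against 3.27 and 12.3 in slow18, and at 30.6 and 13.5 in WT29, against 10.7 and 9.57 in WT18. It rose by 2.43 in slow (adjusted p = 4.97e-05), with a difference of 1.04 in WT (adjusted p = 0.0557). The interactions were 2.83 (0.42 to 5.23) for CG17304 and 1.39 (0.13 to 2.65) for CG30089, each with an adjusted p of 0.927.

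Called circles of lt included 2 that start at 2L:22820170. The one ending at 22820635 was called lower at 29 in both genotypes (-1.42 in slow, -1.14 in WT). The one ending at 22820497, the length of 1 coding exon, fell by 4.60 in slow (adjusted p = 0.00124), with a difference of -1.73 in WT (adjusted p = 0.0762). It had 0 and 1 reads in slow29, 7 and 4 in slow18, 2 and 6 in WT29, and 10 and 12 in WT18.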
